A study of Rattus norvegicus with 6 samples.

Results

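Genes of the Wnt pathway were followed after hypoxia/reoxygenation (H/R) in H9c2, a line of myoblasts that was derived from the heart of rat embryos. The set was chosen by name: every protein-coding probe whose RefSeq accession belongs to a rat Wnt ligand (Wnt), Frizzled receptor (Fzd), R-spondin (Rspo), secreted inhibitor (Sfrp, Dkk, Wif1), co-receptor (Lrp5, Lrp6), cytoplasmic component (Dvl, Axin, Nkd) or TCF/LEF factor. This gave 38 genes, each with a single probe, and 37 of them had a usable spot in every scan, out of 13823 named coding genes on the array. Another 17 rat symbols that fit these names, among them Lrp5, Lrp6, Fzd7, Sfrp1 and Tcf7l2, had no coding probe named by accession and were not analysed here.

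Wnt proteins are secreted, lipid-modified signals that bind a Frizzled receptor. With the co-receptors Lrp5 and Lrp6 they recruit Dishevelled (Dvl) and Axin to the membrane, which stops the destruction of beta-catenin and lets it act with TCF/LEF factors on target genes. Other Wnt and Frizzled proteins act through cell polarity or calcium without beta-catenin, and in heart muscle the pathway is known for its part in cardiac development and in the remodelling that follows injury.

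The H/R group held 3 samples, of cells in medium without serum and glucose that spent 1 h in gas with 1% oxygen, 5% carbon dioxide and 94% nitrogen and then 3 h at normal oxygen. The control group held 3 samples of cells at normal oxygen. Both were grown beforehand in DMEM with 4500 mg/L glucose and 10% serum, and since the labels do not give the medium of the control cells during the experiment, low oxygen and the change of medium cannot be told apart. RNA was measured on 1-colour Agilent arrays, and all samples are of 1 cell line. The series' design text speaks of 3 independent experiments in each group, with which the files are at odds as described next.

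Between 58.4% and 71.1% of spots were well above background in each scan. H/R replicates 2 and 3 had 71.1% and 69.4%, and all other scans 58.4% to 61.7%. The part of this difference in the detection counts below was not tested. Replicates 2 and 3 of each group carried the same slide position and differed by a median of 0.0460 to 0.0556 on the log2 scale per spot, while all other pairs of scans from a single group differed by 0.195 to 0.232. These replicates were counted as 2 scans of 1 array, which leaves n = 2 arrays per group, and the p-values measure only how these arrays vary, a spread that may be technical. An exact test over 2 against 2 arrays cannot go below a p of 0.333, so calls rest on limma, fitted to 15899 probes. Each array had its own slide position, and an effect of position cannot be told apart from one of group. Of the muscle markers with a usable probe, 11 of 12 were well above background in at least 1 scan, and Myf6 was not in any. Of the 11 tested, Tnnt2 (log2 difference 1.13), Tnnt1 (0.51) and Chrna1 (at least 1.46-fold) were higher in H/R and Myod1 (-1.48) and Cav3 (-0.50) lower. Chrna1 entered the test through its H/R scans alone, since no control scan was well above background, and could hardly have been called lower. Its fold is stated on the basis given below for Wnt10b. The muscle list's summed relative signal (defined below) was 3006% to 3461% in H/R, against 2867% to 3219% in control cells. Of 8 mesenchymal markers Pdgfrb was higher (0.51, adjusted p = 0.0338), with a sum of 13897% to 14600% in H/R, against 11017% to 13093% in control cells. The protocol text names a brain cortex as RNA source, against every other label. Of 8 neuronal and glial markers, 4 (Rbfox3, Slc17a7, Gad1 and Aqp4) never exceeded background clearly, while Mbp, Mog and Gfap were well above background in every scan. The markers of leukocytes and of neurons and glia had 0 of 5 and 0 of 3 tested genes past the threshold (limma; none of them had an adjusted p below 0.0650). Of 2 endothelial markers tested, Tek, which encodes an angiopoietin receptor, was higher in H/R, and Pecam1 and Cdh5 were not well above background in any. The 4 endothelial markers summed to 11.9% to 14.0% in H/R, against 6.89% to 7.32% in control cells, and Tek alone gave 9.01% to 11.2% in H/R, against 4.49% to 4.86% in control cells. Such sums add probes of different strength and follow the brightest. The part of such cells in the results below was not tested, and in bulk RNA more cells of a type and more RNA per cell cannot be told apart.

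Among the genes past the threshold were 4 Wnt ligand genes and 2 Frizzled genes, all higher in H/R, while the nuclear factor gene Lef1 was lower. Of the 38 genes, 27 could be tested because the array software scored their probe as well above background throughout at least 1 group. At an adjusted p under 0.05, 9 were higher in H/R (Wnt5b, Wnt9a, Wnt10a, Wnt10b, Rspo1, Fzd4, Fzd6, Sfrp4 and Nkd2) and 2 were lower (Lef1 and Dvl1). Among all 10001 named coding genes tested, 25.8% passed, 16.2% higher and 9.62% lower. Over all probes tested 23.7% passed, 14.8% higher and 8.87% lower. Wnt10b and Sfrp4 entered the test through the H/R scans alone, since no control scan was well above background, and could hardly have been called lower. Of the 24 genes well above background in all 6 scans, 7 were higher and 2 lower, where 15.3% and 10.3% of all such probes were. The median difference of the 27 genes was 0.26 on the log2 scale, and 0.07 for all probes tested (0.22 for the 24 genes and 0.05 for the probes well above background in all 6 scans). In 12 of the 27 every H/R scan lay above every control scan and in 4 every H/R scan lay below, where 38.2% and 27.9% of named coding genes and 37.4% and 26.7% of all probes did so. With each array scaled to its median, the median difference was 0.14 for the 27 genes and -0.06 for all probes, the counts were 9 higher and 3 lower, and the calls over all probes turned to 1566 higher and 2253 lower, against 2358 and 1411 as reported. With quantile normalization the median difference was 0.072 for the 27 genes and 0.00 for all probes. After normexp background correction 0 of the 27 passed by limma, with 7 at an unadjusted p under 0.05.

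**Figure D1:**
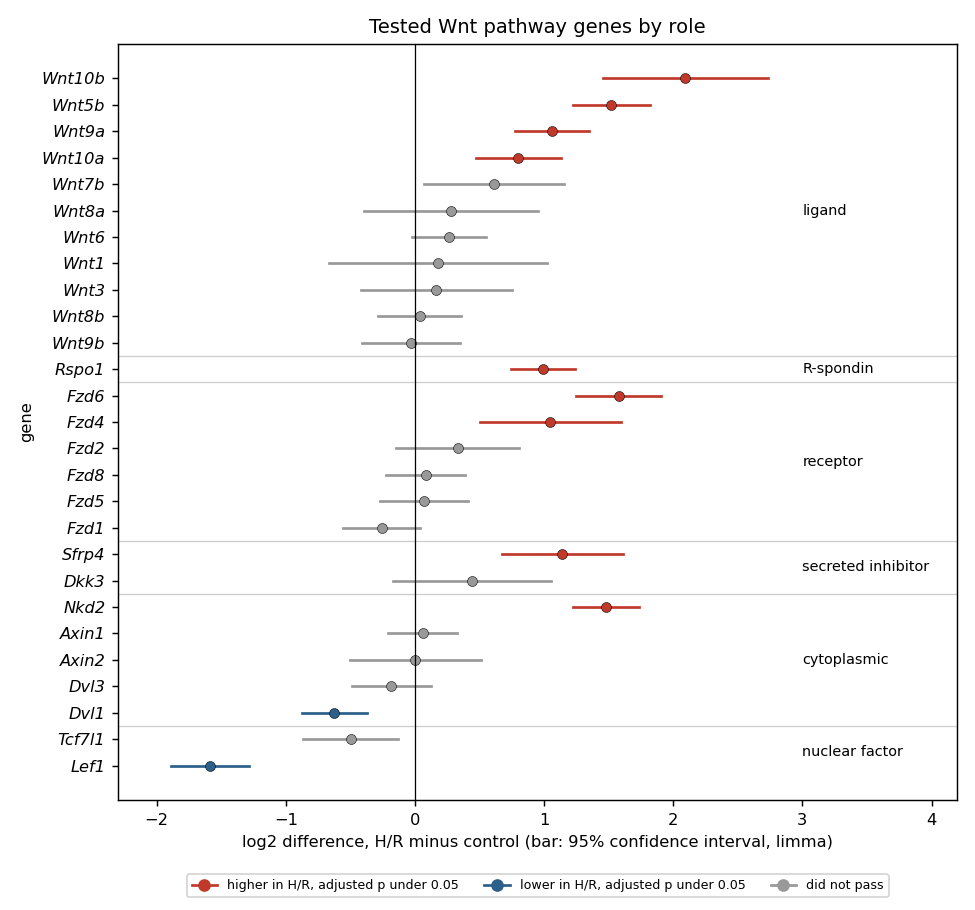
Log2 difference, H/R minus control, of the 27 tested genes, grouped by role (points; bars are 95% confidence intervals from limma, n = 2 arrays per group). The 4 ligand genes past the threshold lie between 0.80 and 2.09, the highest being Wnt10b, whose control signals were not well above background, and Lef1 lies lowest at -1.59.

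Values in single scans are given below as relative signal, the processed signal of the probe in percent of the 75th percentile over all probes of that array. Probes bind with different strength, so a relative signal is compared between samples and not between genes. Differences are on the log2 scale with moderated standard errors.

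Sequence from 250 bases before to 50 bases after the annotated gene start is shown for 8 genes, all 5′ to 3′ on the gene's strand, from RefSeq (rat assembly GRCr8). These are the 7 called genes with an entry in the table, and Axin2, a textbook target of beta-catenin that did not pass. The lines stand for Lef1 at chr2:222340463-222340762, Dvl1 at chr5:171738973-171739272, Nkd2 at chr1:31272282-31272581, Fzd4 at chr1:152692257-152692556, Rspo1 at chr5:142536040-142536339, Wnt9a at chr10:44593441-44593740, Wnt10a at chr9:83798344-83798643 and Axin2 at chr10:94398535-94398834, each on the plus strand. Capitals mark matches on either strand to CTTTGA or CTTTGT, core forms of the TCF/LEF site, and to ACGTG. The last is a core form of the element bound by hypoxia-inducible factors, whose other form, GCGTG, was not searched.
Lef1: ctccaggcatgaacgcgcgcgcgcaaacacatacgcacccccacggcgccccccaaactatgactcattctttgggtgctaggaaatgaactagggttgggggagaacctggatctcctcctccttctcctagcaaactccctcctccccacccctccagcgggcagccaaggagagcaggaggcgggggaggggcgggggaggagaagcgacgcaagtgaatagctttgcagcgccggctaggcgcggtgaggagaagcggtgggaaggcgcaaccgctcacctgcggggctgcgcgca
Dvl1: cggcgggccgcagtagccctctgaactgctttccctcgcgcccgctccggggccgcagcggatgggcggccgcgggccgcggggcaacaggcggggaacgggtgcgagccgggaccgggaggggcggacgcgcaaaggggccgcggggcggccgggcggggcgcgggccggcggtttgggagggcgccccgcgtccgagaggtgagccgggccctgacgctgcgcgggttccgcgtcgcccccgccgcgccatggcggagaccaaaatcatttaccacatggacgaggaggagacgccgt
Nkd2: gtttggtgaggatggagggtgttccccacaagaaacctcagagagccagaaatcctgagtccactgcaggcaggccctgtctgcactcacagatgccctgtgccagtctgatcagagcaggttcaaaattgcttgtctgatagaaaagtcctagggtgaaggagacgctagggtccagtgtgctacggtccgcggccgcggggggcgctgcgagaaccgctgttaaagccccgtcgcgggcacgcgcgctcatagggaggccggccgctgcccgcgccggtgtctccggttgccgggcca
Fzd4: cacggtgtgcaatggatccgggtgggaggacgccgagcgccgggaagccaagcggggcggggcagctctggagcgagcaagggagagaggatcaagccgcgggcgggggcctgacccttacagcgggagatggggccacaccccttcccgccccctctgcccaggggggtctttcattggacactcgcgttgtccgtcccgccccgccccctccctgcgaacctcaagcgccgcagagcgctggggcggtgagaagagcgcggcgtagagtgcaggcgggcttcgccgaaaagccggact
Rspo1: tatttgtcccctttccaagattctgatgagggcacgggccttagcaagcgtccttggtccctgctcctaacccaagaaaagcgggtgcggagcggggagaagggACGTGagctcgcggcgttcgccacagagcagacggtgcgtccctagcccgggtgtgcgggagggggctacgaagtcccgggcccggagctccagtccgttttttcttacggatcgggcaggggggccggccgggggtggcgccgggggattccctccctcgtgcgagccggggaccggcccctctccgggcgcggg
Wnt9a: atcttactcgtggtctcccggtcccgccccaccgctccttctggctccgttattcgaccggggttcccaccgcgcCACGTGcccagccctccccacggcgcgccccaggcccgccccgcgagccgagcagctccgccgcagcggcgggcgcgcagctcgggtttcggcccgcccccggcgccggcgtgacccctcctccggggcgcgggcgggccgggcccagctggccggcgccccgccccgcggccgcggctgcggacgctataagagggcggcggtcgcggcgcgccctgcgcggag
Wnt10a: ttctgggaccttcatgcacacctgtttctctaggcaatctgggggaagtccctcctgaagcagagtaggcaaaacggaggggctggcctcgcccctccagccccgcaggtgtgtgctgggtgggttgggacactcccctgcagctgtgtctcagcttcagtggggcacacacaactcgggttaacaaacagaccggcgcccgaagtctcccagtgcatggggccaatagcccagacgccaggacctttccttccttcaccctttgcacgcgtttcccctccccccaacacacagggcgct
Axin2: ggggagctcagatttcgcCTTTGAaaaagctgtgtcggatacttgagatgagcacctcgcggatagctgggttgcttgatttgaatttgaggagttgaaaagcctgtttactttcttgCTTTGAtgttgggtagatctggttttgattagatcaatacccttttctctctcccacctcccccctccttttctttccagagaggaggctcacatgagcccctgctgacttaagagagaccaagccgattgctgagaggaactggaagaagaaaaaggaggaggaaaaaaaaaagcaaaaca

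Windows were found for 27 of the 38 genes, 7 of them past the threshold. CTTTGA was present in 3 of the 27 windows (Axin2, Dkk1 and Wnt8a) and in 16.1% of all 33469 windows of this length, and CTTTGT in 5 (Dkk1, Sfrp5, Tcf7l1, Wnt3 and Wnt8b) and in 18.8%. The Axin2 window held CTTTGA 232 and 132 bases before the start. ACGTG was present in 3 windows (Rspo1, Wnt9a and Wnt9b) and in 19.3% of all windows. In Rspo1 it lay 146 bases before the start, and in Wnt9a the matches on the 2 strands overlapped at 175 and 174 bases before it. The letters searched, which did not include GCGTG, were not present in the windows of Lef1, Nkd2, Fzd4, Wnt10a and Dvl1. A match describes the letters of the window and is not a measured binding site.

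Of 14 Wnt ligand genes, 4 of the 11 tested rose and 0 fell, where 16.2% and 9.62% of all named coding genes tested did. Of the 4, Wnt10b entered the test through its H/R scans alone and could hardly have been called lower. Wnt5b, whose product is best known from signalling without beta-catenin, had a relative signal of 20.5%, 20.3% and 19.7% in the H/R scans, against 7.61%, 6.55% and 6.53% in the control scans. All H/R scans lay well above all control scans, and Wnt5b rose 2.87-fold (log2 difference 1.52 ± 0.11, adjusted p = 0.00323). For its close relative Wnt5a no scan was well above background.

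Wnt9a, a ligand known from joint and blood stem cell development, had 79.8%, 86.9% and 89.8% in H/R, against 38.4%, 42.2% and 42.3% in control cells. The groups did not overlap, and the 2.08-fold rise (1.06 ± 0.11) had an adjusted p of 0.00619. Wnt10a, known for its role in teeth and skin, had 9.47%, 9.29% and 9.52% in H/R, against 4.92%, 5.81% and 6.14% in control cells. It rose 1.74-fold (0.80 ± 0.13, adjusted p = 0.0160), and its adjusted p was 0.0802 without H/R replicate 1 and 0.0830 when H/R array 2 was left out (both its scans).

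Wnt10b, a beta-catenin-activating ligand that holds back fat cell formation, had 0.925%, 1.15% and 1.06% in H/R, against 0.188%, 0.437% and 0.203% in control cells. It was well above background in all 3 H/R scans and in no control scan, and control replicate 2 was higher than replicate 3, a scan of the same array. Because control signals were not well above background, its rise is stated as at least 1.40-fold, from the H/R mean and, for each control scan, whichever was higher of the probe's signal there and the lowest signal of any spot well above background. The fitted difference of 2.09 ± 0.25 (adjusted p = 0.00786) was set against those dim control values and is no bound. The 1.40-fold value carries no standard error, and its floor was that of the whole array and not one set for this probe. After normexp correction the fitted difference was 1.36.

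The other 7 tested ligand genes did not pass. The largest of these differences was that of Wnt7b, with 1.98%, 2.13% and 1.96% in H/R and 1.08%, 1.73% and 1.51% in control cells. Its groups did not overlap, but control array 1 lay apart and the difference of 0.61 ± 0.21 had an adjusted p of 0.0964. It passed in 2 of 18 alternative settings (described below), without control array 2 and with the 6 scans as separate samples. Wnt6 (0.26), Wnt8a (0.28), Wnt1 (0.18), Wnt3 (0.16), Wnt8b (0.04) and Wnt9b (-0.03) had smaller log2 differences. For Wnt1 the arrays of a group disagreed, with 3.52%, 5.91% and 6.32% in H/R and 4.98%, 3.33% and 3.41% in control cells. No scan was well above background for Wnt16. Wnt4 was usable in 4 scans, with 88.0%, 91.6% and 90.8% in H/R and 119% in control replicate 1, and was not tested because its spot was marked as an outlier by the array software in control replicates 2 and 3.

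In GRCr8, 3 pairs of tested ligand genes are direct neighbours among protein-coding genes. Wnt10b and Wnt1 lie side by side on chromosome 7, Wnt6 and Wnt10a on chromosome 9, and Wnt9b and Wnt3 on chromosome 10. In the first pair Wnt10b was at least 1.40-fold higher in H/R and the log2 difference of Wnt1 was 0.18, in the second 0.80 for Wnt10a and 0.26 for Wnt6. Neither gene of the third pair passed (-0.03 for Wnt9b and 0.16 for Wnt3). The difference within a pair was not tested.

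R-spondins are secreted proteins that raise the level of Frizzled receptors at the cell surface through Lgr receptors. Rspo1 had 536.3%, 518.5% and 524% in H/R, against 273.9%, 260.7% and 255.6% in control cells. The 2 arrays of each group lay close together and the rise of 1.99-fold (0.99 ± 0.09) had an adjusted p of 0.00519. Rspo2 was well above background in 2 of 3 H/R scans and no control scan, too few for a test, with 0.452%, 0.661% and 0.789% in H/R and 0.567%, 0.541% and 0.577% in control cells. For Rspo3 no scan was well above background.

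Of 7 Frizzled receptor genes 6 were tested, and Fzd6 and Fzd4 rose, where 16.2% of all named coding genes tested did. Fzd6, a receptor known from hair and skin polarity in mice, had 40.1%, 49.4% and 48.2% in H/R, against 14.8%, 14.9% and 14.8% in control cells. The 2 control arrays were nearly equal, all H/R scans lay far above them, and the rise was 2.98-fold (1.58 ± 0.13, adjusted p = 0.00371). Fzd4, the receptor for Wnt and norrin in retinal vessels, had 4.83%, 3.41% and 3.42% in H/R, against 2.19%, 1.81% and 1.70% in control cells. The groups did not overlap, but replicate 1 was the highest of both. Fzd4 rose 2.07-fold (1.05 ± 0.21, adjusted p = 0.0278), and its adjusted p was 0.0884 without H/R replicate 1, 0.0530 without control replicate 1 and 0.0784 without control array 2.

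The remaining receptor genes did not pass. Fzd1 had 68.6%, 61.7% and 60.1% in H/R, against 73.5%, 81.6% and 81.5% in control cells, without overlap (-0.26 ± 0.12, adjusted p = 0.167). Fzd2 differed by 0.33 ± 0.18 with overlapping groups (adjusted p = 0.243). Fzd8 and Fzd5 differed by 0.08 and 0.07, with 95% confidence intervals of -0.23 to 0.39 and -0.27 to 0.41. Fzd9 was in no scan well above background.

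**Figure D2:**
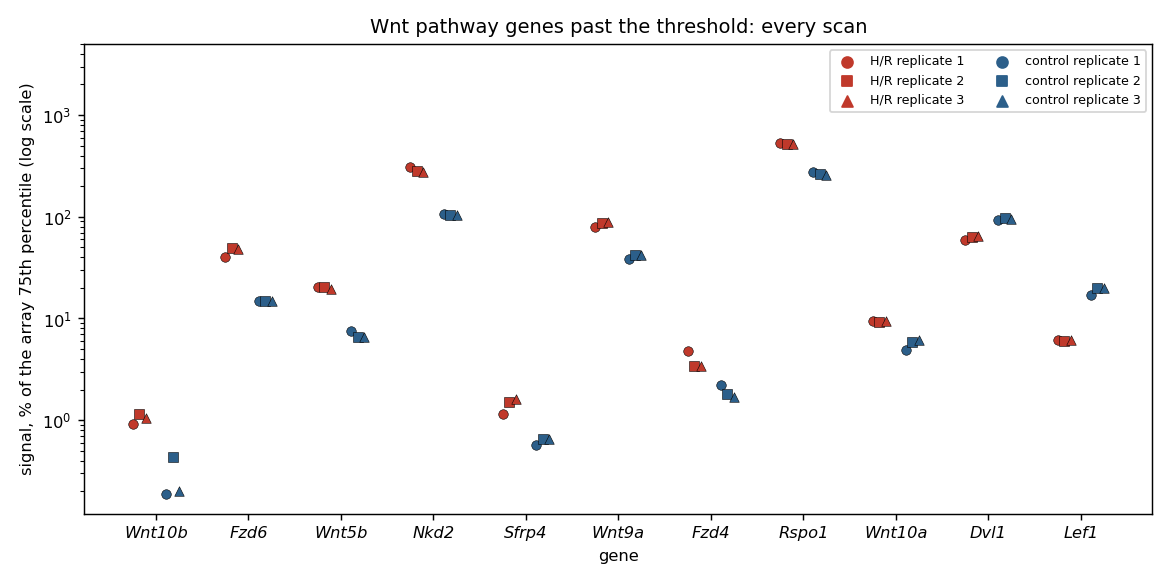
Relative signal in every scan (vertical log axis, percent of the array's 75th percentile) of the 11 genes past the threshold, H/R scans at the left of each gene and control scans at the right; points are single scans, and replicates 2 and 3 of a group are scans of the same array. In each of these genes, which were picked by the test on these same scans, the H/R and control scans do not overlap. Among named coding genes tested, every H/R scan lay above every control scan in 38.2% and below in 27.9%.

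Most secreted inhibitors of the set were too dim to test. Sfrp4, which encodes a Frizzled-related protein that binds Wnt proteins, had 1.15%, 1.52% and 1.61% in H/R, against 0.567%, 0.659% and 0.651% in control cells. It was well above background in all 3 H/R scans and in no control scan. Its rise is stated as at least 1.86-fold on the same basis as for Wnt10b (fitted log2 difference 1.14 ± 0.18, adjusted p = 0.0161; 0.0596 without control replicate 1 and 0.0568 without H/R array 2). Dkk3, a member of the Dickkopf family whose role in Wnt signalling is not settled, had 4.90%, 7.69% and 7.97% in H/R, against 4.62%, 4.43% and 4.60% in control cells. H/R replicate 1 lay close to the control scans, and the difference of 0.44 ± 0.23 did not pass (adjusted p = 0.227). Dkk1, Dkk2 and Dkk4, which encode Dickkopf proteins that bind the Lrp co-receptors, and Sfrp2 never reached the level called well above background, and Sfrp5 did in 2 H/R scans and 1 control scan.

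Inside the cell, Nkd2 rose, Dvl1 fell and neither Axin gene passed. Nkd2, which encodes a Dishevelled-binding inhibitor of the pathway, had 305.5%, 282.4% and 275.1% in H/R, against 105.5%, 103.2% and 104.7% in control cells. The rise was 2.79-fold (1.48 ± 0.10, adjusted p = 0.00269), and every H/R scan lay above every control scan. Dvl1, one of the Dishevelled genes, had 59.2%, 63.9% and 64.3% in H/R, against 93.9%, 96.8% and 95.7% in control cells. It fell by 0.63 ± 0.10 (log2; adjusted p = 0.0154). The adjusted p was 0.0884 without H/R replicate 1, 0.0508 without control replicate 1 and 0.0699 without H/R array 2. Its relative Dvl3 differed by -0.18 ± 0.12 and did not pass.

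Axin2, a feedback inhibitor widely used as a readout of beta-catenin activity, had 3.94%, 3.05% and 3.06% in H/R, against 3.98%, 2.91% and 3.11% in control cells. The groups overlapped and replicate 1 was highest in both, with a difference of 0.00 ± 0.20 and a 95% confidence interval of -0.51 to 0.51. Axin1, the scaffold of the destruction complex, differed by 0.06 with an interval of -0.21 to 0.32. These intervals leave room for changes of up to those sizes.

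Lef1, a transcription factor that binds DNA with beta-catenin and is itself a described target of the pathway, had 6.09%, 6.02% and 6.20% in H/R, against 16.9%, 19.8% and 20.0% in control cells. The 2 H/R arrays were nearly equal and all H/R scans lay far below the control scans. Lef1 fell by 1.59 ± 0.12 (adjusted p = 0.00313), so that its control signal was 3.01 times that in H/R. After normexp correction its difference was -0.56. Tcf7l1, a factor of the same family that mostly represses, had 216.8%, 191.1% and 199.8% in H/R, against 323.7%, 260.3% and 262.9% in control cells. The groups did not overlap, but the difference of -0.50 ± 0.14 missed the threshold (adjusted p = 0.0639). It passed in 5 of 18 alternative settings. Among them were arrays scaled to their median (adjusted p = 0.0269), where calls over all probes leaned lower, and the 75th percentile taken over spots (0.0413). Another was the fit of 6 scans as separate samples, which counts scans of 1 array as samples.

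Other genes of the pathway were counted in 7 lists, and each count below stands beside the 16.2% higher and 9.62% lower of all named coding genes tested. Of 14 tested genes described as transcriptional targets, 2 were higher and 6 lower in H/R, and their median difference was -0.57. These targets answer to many other signals too. Ccnd1, which encodes the G1 cyclin D1, had 944%, 764% and 736% in H/R, against 2183%, 2133% and 2121% in control cells, and fell by 1.36 ± 0.14 (adjusted p = 0.00606). Id2, which encodes an inhibitor of basic helix-loop-helix factors, fell by 1.58 ± 0.19 (adjusted p = 0.00815). Fst, which encodes the activin inhibitor follistatin, fell by 0.65 ± 0.10 (adjusted p = 0.0141). Ccn5, a matricellular protein gene, rose 2.25-fold (1.17 ± 0.09, adjusted p = 0.00371) and the nuclear receptor gene Ppard rose by 0.59. Myc missed the threshold with a difference of -0.71 ± 0.20 (adjusted p = 0.0593). It passed in 5 of 18 alternative settings, among them arrays scaled to their median (adjusted p = 0.0218), where calls over all probes leaned lower. Lgr5 and Sp5, described as specific targets in other tissues, were not well above background in any scan, and Rnf43 was in 2 H/R scans and no control scan.

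For the destruction complex and beta-catenin, 2 of 17 tested genes rose, 0 fell and the median was 0.15. The 2 were Tnks, which encodes a tankyrase that marks Axin for degradation (0.49 ± 0.09, adjusted p = 0.0247), and Amer1 (0.43 ± 0.11, adjusted p = 0.0482), a scaffold gene. Neither passed with arrays scaled to their median (adjusted p = 0.0610 and 0.118). Ctnnb1, which encodes beta-catenin, differed by -0.08, Gsk3b by -0.15 and Apc by 0.24, and none of these passed.

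Among 13 nuclear cofactor genes 4 rose and 1 fell (median 0.20). Hbp1, which encodes a repressor of TCF-driven transcription, rose 1.79-fold (0.84 ± 0.10, adjusted p = 0.00729). The corepressor genes Tle4 and Tle2 rose by 0.83 and 0.59, and Cby1, which encodes a beta-catenin antagonist, by 0.63. Ctbp2, another corepressor gene, fell by 0.48 (adjusted p = 0.0245).

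Of 18 tested genes of the polarity and calcium branch 3 rose, 3 fell and the median was 0.04. Cthrc1, which encodes a secreted protein reported to stabilise Wnt and Frizzled complexes, had 2.18%, 2.62% and 2.70% in H/R, against 1.03%, 0.976% and 1.06% in control cells (1.23 ± 0.13, adjusted p = 0.00623), and was well above background in 2 of 3 control scans. Invs and the polarity gene Vangl1 rose by 0.74 and 0.60. The kinase genes Rock2, Camk2g and Camk2d fell, with log2 differences of -0.96, -0.82 and -1.29 (adjusted p = 0.00519, 0.00785 and 0.0443).

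Of 8 other receptor genes tested, Ror2, which encodes a receptor for Wnt5a, fell by 0.59 ± 0.12 (adjusted p = 0.0270) and Lrp4 rose by 0.43 ± 0.10 (adjusted p = 0.0431; 0.131 with arrays scaled to their median). The R-spondin receptor gene Lgr4 differed by 0.43 and Ryk by -0.22, and these did not pass. Among genes of ligand secretion and release 1 of 9 rose, the sulfatase gene Sulf2 (0.42 ± 0.09, adjusted p = 0.0346; 0.116 with arrays scaled to their median), and Wls, the carrier of Wnt proteins to the cell surface, differed by 0.26 without passing. Of 4 other inhibitor genes tested Igfbp4 rose by 0.69 ± 0.12 and Tmem88 by at least 1.68-fold, its probe not well above background in control cells, while Frzb was too dim to test in all scans.

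Most calls in these lists were lost when some array was left out. Ccn5, Ccnd1, Id2, Rock2 and Cthrc1 stayed past the threshold whichever array was left out. Without H/R replicate 1, Camk2g also stayed, while the other called genes named from these lists had adjusted p between 0.0531 (Hbp1) and 0.184 (Amer1). Without H/R array 2, Hbp1, Tle4 and Tmem88 stayed, while the others had adjusted p between 0.0568 (Vangl1) and 0.173 (Lrp4). Without control replicate 1 the calls of Ctbp2, Fst, Ppard, Ror2, Lrp4, Sulf2, Tle2, Tmem88, Tnks, Amer1 and Vangl1 were lost (0.0525 to 0.132). Without control array 2 those of Amer1, Cby1, Ctbp2, Igfbp4, Lrp4, Sulf2, Tmem88, Tnks and Vangl1 were lost (0.0551 to 0.122). Leaving out only 1 of the 2 scans of an array ended the calls of Amer1, Camk2d and Sulf2 (control replicate 2; 0.0533, 0.0544 and 0.0754), of Amer1 (H/R replicate 2; 0.0807) and of Vangl1 (H/R replicate 3; 0.0597). Vangl1 also missed the threshold with arrays scaled to their median (0.0773), as Tnks, Amer1, Lrp4 and Sulf2 did.

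**Figure D3:**
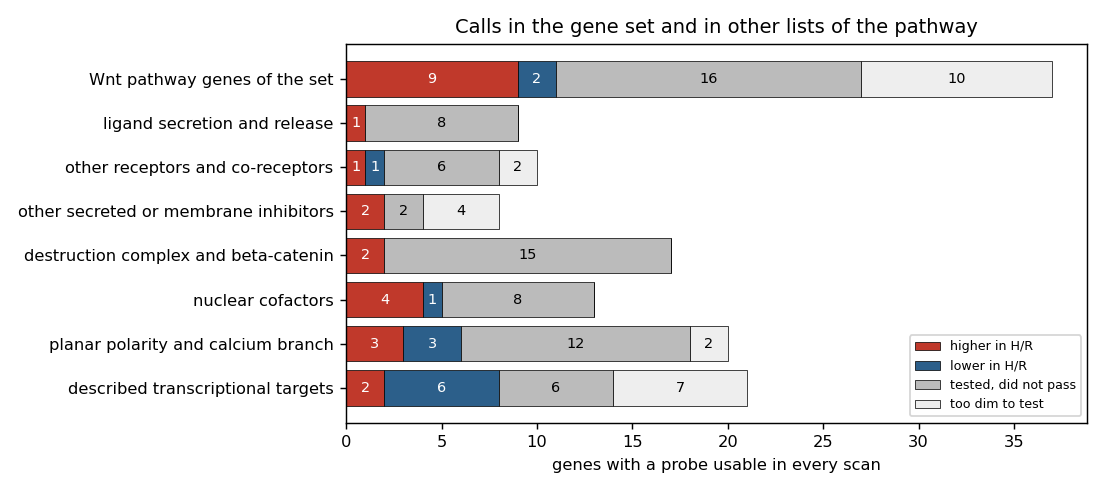
Number of genes (horizontal axis) with a probe usable in every scan, by outcome, for the 37 Wnt pathway genes of the set and for 7 other lists of the pathway. In the set 9 genes were higher in H/R, 2 lower, 16 did not pass and 10 were too dim to test; in the list of described transcriptional targets 2 were higher and 6 lower.

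The differences of the 11 called genes were recomputed under 18 alternative settings. All 11 kept their direction in every setting in which they were tested. These genes were picked by their differences in the same scans, so keeping the direction is no independent support. Lef1, Nkd2, Rspo1, Wnt5b and Fzd6 stayed past the threshold in all settings other than normexp.

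**Figure D4:**
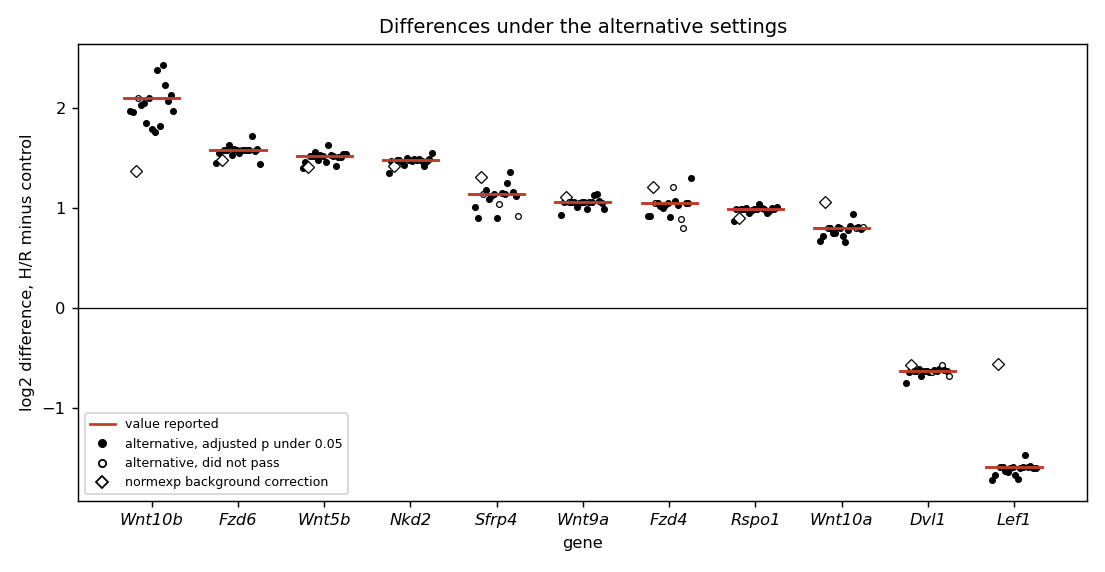
Log2 difference, H/R minus control, of the 11 genes past the threshold (red line) and under each alternative setting (points; filled where the adjusted p was under 0.05, open where not, diamonds for normexp). Every point lies on the same side of 0 as the reported value, and all diamonds are open.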

How the data were processed

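The authors read 1-colour (Cy3) scans with Agilent Feature Extraction 11.0.1.1, according to the submitters' processing notes. The deposited intensity values (processed signal) had background and a spatial trend removed within each array, per the file headers, with no step between arrays recorded there. The deposited flags (other values, 0 or 1) mark spots above background, saturated or outlying. The authors' deposited table of log2 values, normalized by a method not given in the sources used here, correlated with the scanner values at r of 0.9998 to 0.9999 across probes, with column medians between 9.159 and 9.163 over the probes matched.

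Control and outlier spots were left out, log2 signals averaged per probe, and each array's 75th percentile over probes subtracted. Accessions were matched to RefSeq names (GRCr8), which named 14205 of 15251 coding probes; the array design is of another build, so no array coordinates are given. Replicates 2 and 3 of a group were averaged as 1 array (avearrays). Groups were compared with limma 3.58.1 in R 4.3.3 (lmFit, eBayes, two-sided, Benjamini-Hochberg over 15899 probes, residual degrees of freedom 2, prior 2.86). The fit was also run on simulated independent values with variances taken from these arrays. Such a run cannot show dependence between arrays or an effect of slide position. Python 3.11.15, pandas 2.3.3 and matplotlib 3.10.9 served for tables and figures. The number of arrays limits the precision, and 0 spots were saturated.

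The members and lists were chosen with earlier results of these data known. All 38 members are accounted for. Members past the threshold are given in every scan. Of the other lists, up to 4 tested genes with the lowest adjusted p and a few chosen by name (such as Ctnnb1 and Myc) are given. All called genes of a direction are given where 5 or fewer were called in it. By this rule the lower targets Cd44 (-0.63), Ccn4 (-0.74) and Twist1 (-0.58) are not named above or followed across settings. Genes named beyond this were picked after their values were seen. Alternatives changed scaling, background correction, the filter on dim probes, the treatment of scans, the values used and the arrays included. The planned normexp used the mean signal, which the files do not hold, so the spots' median signal was used, a choice made after seeing the files, as was the percentile over spots.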

Additional observations from a re-analysis of the deposited data

How the results depend on the processing

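Of the 27 tested genes, the count past the threshold (11; 9 higher, 2 lower) was 0 after normexp correction (0 higher, 0 lower; 2044 of 15899 probes at an unadjusted p under 0.05 in limma, 0 after adjustment) and 5 (4 higher, 1 lower) without the filter on dim probes, where 594 of 24578 probes passed instead of 3769 of 15899. The cause of neither was tested. Without the filter the adjustment runs over more probes, and 5800 of them had an unadjusted p under 0.05, against 6309 of 15899 with it. With the 6 scans as separate samples 16 passed, 12 higher and 4 lower, and 8309 probes passed, a fit that counts scans of 1 array as samples. Leaving out a replicate or an array gave 8 to 12 past the threshold, 7 to 9 higher and 1 to 3 lower, with a median difference of 0.16 to 0.36; where this left 1 array in a group, that array was assumed to vary like the others. Of all probes 1091 passed without H/R replicate 1, 1008 without H/R array 2 and 2040 without control replicate 1. The median difference of the genes (0.26) was 0.14 with median scaling, 0.072 with quantile normalization, 0.0691 with the authors' deposited log2 table and 1.03 after normexp, where the median of all probes was 0.33; the cause was not tested. Camk2d (0.68) and Ror2 (0.78) turned sign after normexp without passing. Higher calls made up 62.6% of all calls, against 41.0% with median scaling. All 11 called genes kept their sign in each of 18 alternatives (17 for Wnt10b and Sfrp4, not tested where all 6 scans had to be well above background), and 10 of the 16 others changed sign in at least 1. The called genes were picked by their differences in these same scans and the others differed less, so this contrast was largely set in advance. Array numbers as a replicate block gave 12 past the threshold, 9 higher and 3 lower, adding Tcf7l1 (adjusted p = 0.0396). Deviations of same-numbered arrays correlated at 0.153 over probes, and with 2 numbers the pairing cannot be settled. Normexp on mean signals and a second probe per gene could not be run, since the files hold no mean signal and each gene had 1 probe. Signals near background limit Wnt10b, Sfrp4 and the 10 untested genes.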
